A study of Mus musculus with 36 samples.

Results

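The mevalonate pathway up to squalene epoxide was followed in the liver and spleen of tumour-bearing mice through 9 enzyme genes, listed here in pathway order as Acat2, Hmgcs1, Mvk, Pmvk, Mvd, Idi1, Fdps, Fdft1 and Sqle. Members were all probes that the platform annotation assigns to these symbols. That gave 9 probes for 8 genes among 23982 probes in all, of which 19344 carry a gene symbol. Sqle had 2 probes, each other gene had 1, and Acat2 matched none and has no value here. The pathway builds isoprenoid units from acetyl-CoA and joins them into squalene, which later enzymes turn into cholesterol. Liver is a main site of this synthesis, and most genes of the pathway are activated by the transcription factor SREBP-2 when sterols in the endoplasmic reticulum run low. SREBP-2 is known to act on promoters together with the factor NF-Y.

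The 36 arrays came from male BALB/c mice, all carrying J558 myeloma cells injected under the skin. The 12 groups held 3 arrays each: liver or spleen, given distilled water or OPP to drink, OPP being phenolics extracted from oil palm and offered at 1500 ppm (gallic acid equivalents). Groups were sampled at 18 hours (age 6 weeks), 1 week (age 7 weeks) and 4 weeks (age 10 weeks). No group lacks the myeloma cells, and the labels do not settle when the drinks began, since a treatment field gives 4 weeks for every sample. They do not say whether an array is 1 mouse or a pool, nor at what hour or feeding state tissue was taken, so p-values measure the spread between arrays, which may be technical.

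Each value is a log2 ratio whose reference is the same probe's median in that tissue (18 arrays), so 0 is the median and 1 is a doubling. They carry no absolute level: a transcript near background looks the same as an abundant, steady one, and levels cannot be compared between genes or between liver and spleen. For the same reason tissue markers such as Alb cannot show which tissue a whole set of 18 arrays came from. Array medians over all probes lay between -0.03 and 0.04 in liver and between -0.06 and 0.00 in spleen at 18 hours and 1 week. On the 6 spleen arrays of 4 weeks they lay between 0.08 and 0.11. The number of arrays limits the precision.

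Promoter sequence is shown as background, since SREBP-2 and NF-Y are known to act through motifs of the kind marked below. Their part in the members' values was not tested. RefSeq windows (GRCm38.p6) matched 6 of the 9 members; Fdps, Fdft1 and Sqle are named only. Each line gives the 250 bases before the transcript start, 5′ to 3′. Capitals mark the NF-Y box CCAAT and the SRE-like motif TCACNCCAC, searched on both strands; the motifs do not overlap each other.
Hmgcs1 (chr13:119690101-119690350, plus strand): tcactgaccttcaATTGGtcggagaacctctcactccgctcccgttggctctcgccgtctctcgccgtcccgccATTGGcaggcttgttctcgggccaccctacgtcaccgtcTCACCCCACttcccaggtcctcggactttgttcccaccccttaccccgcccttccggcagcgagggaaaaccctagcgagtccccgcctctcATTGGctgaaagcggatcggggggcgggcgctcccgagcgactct
Mvk (chr5:114444019-114444268, plus strand): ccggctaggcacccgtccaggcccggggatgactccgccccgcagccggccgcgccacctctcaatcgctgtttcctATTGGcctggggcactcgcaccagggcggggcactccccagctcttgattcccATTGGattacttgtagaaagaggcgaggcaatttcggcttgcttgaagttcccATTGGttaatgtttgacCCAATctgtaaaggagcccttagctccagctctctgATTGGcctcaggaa
Pmvk (chr3:89454291-89454540, plus strand): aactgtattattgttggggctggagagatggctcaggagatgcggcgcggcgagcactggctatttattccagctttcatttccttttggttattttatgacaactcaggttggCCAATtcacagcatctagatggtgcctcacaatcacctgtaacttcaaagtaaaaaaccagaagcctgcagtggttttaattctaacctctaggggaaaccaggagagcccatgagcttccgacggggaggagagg
Mvd (chr8:122443423-122443672, minus strand): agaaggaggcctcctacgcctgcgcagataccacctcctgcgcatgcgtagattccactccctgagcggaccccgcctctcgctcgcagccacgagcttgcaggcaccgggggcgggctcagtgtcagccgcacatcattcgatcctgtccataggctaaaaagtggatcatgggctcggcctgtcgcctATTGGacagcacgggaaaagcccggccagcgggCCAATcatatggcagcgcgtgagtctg
Idi1 (chr13:8885356-8885605, plus strand): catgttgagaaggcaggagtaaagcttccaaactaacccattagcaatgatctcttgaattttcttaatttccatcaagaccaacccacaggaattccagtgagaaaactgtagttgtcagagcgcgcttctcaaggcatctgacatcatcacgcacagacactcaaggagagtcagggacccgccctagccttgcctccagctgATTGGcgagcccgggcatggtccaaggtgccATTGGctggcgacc

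The Hmgcs1 window held an SRE-like match, TCACCCCAC, from 137 to 129 bases before the start, and 3 NF-Y boxes. The Mvk window held 5 NF-Y boxes, Mvd and Idi1 held 2 each, and the Pmvk window shown held 1. A second Pmvk window and that of Acat2 held neither motif and are not shown. Over all 32851 windows of the same length, 33.8% held CCAAT and 1.05% held TCACNCCAC. The Sp1 box GGGCGG and the E-box CACGTG were also searched and are not marked. GGGCGG lay in the windows of Acat2, Hmgcs1, Mvk, Mvd and Idi1, against 32.7% of all windows. CACGTG lay in no member window, against 6.02% of all windows. Matches describe letters, not bound sites, and windows without a match show only that these letters are absent there.

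In liver, the pathway stood higher in OPP than in water mice at 1 week. Mvd, which decarboxylates mevalonate diphosphate to isopentenyl diphosphate, stood at 2.45 times its value in water mice. Sqle, which oxidises squalene, stood at 2.38 times on probe 1 and 2.91 times on probe 2. Idi1, which isomerises isopentenyl diphosphate, stood at 2.10 times and Pmvk, the second kinase of the pathway, at 1.98 times. Of the 9 probes, 5 were called higher at a Benjamini-Hochberg adjusted p under 0.05 in limma, against 0.705% of all 23982 probes. On 8 of the 9 probes every OPP array lay above every water array, which holds for 7.01% of all probes. The median difference of the 9 probes was 1.09 on the log2 scale, against 0.01 over all probes.

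**Figure D1:**
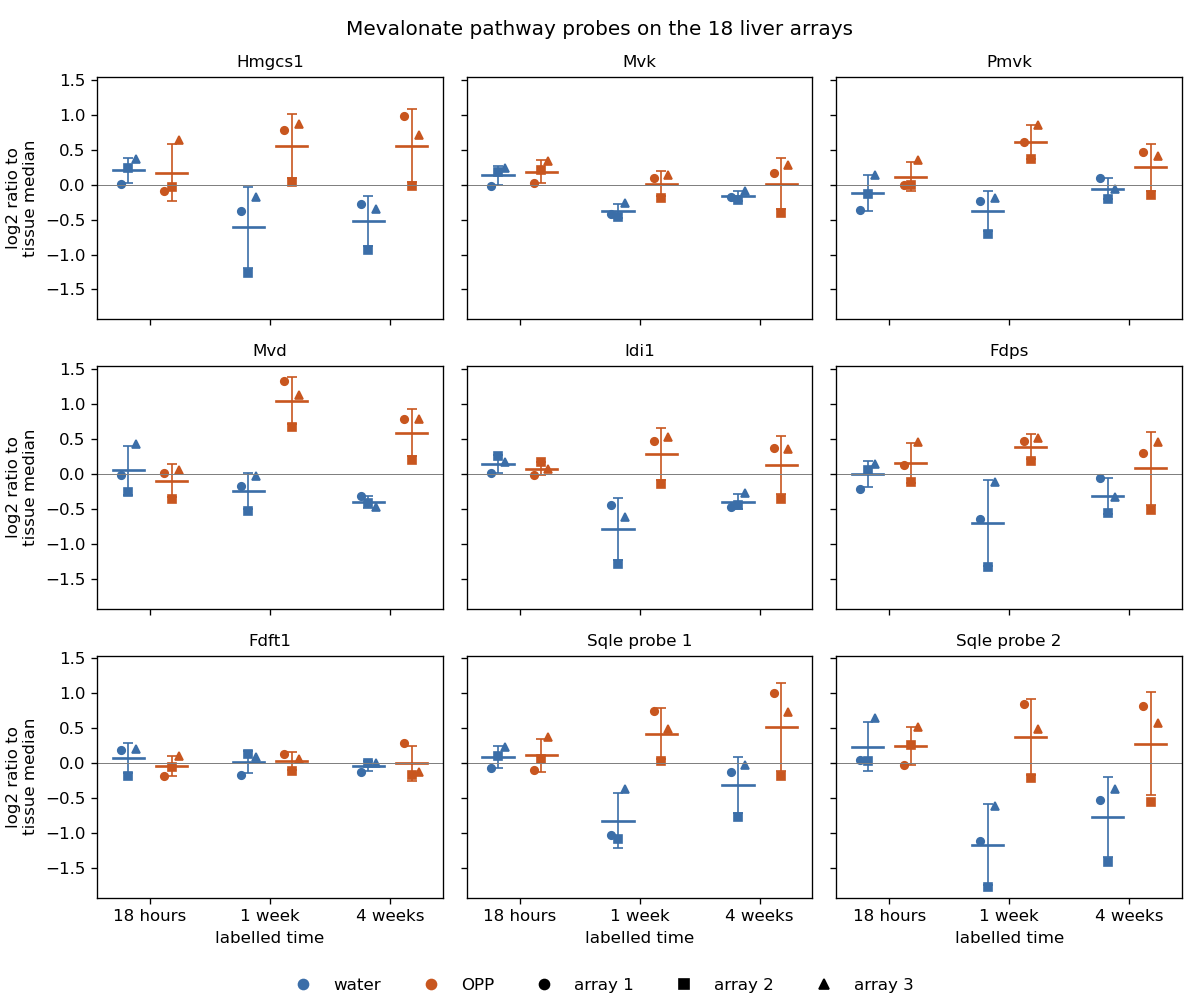
Log2 ratio to the liver median (vertical axis) of the 9 probes on the 18 liver arrays by labelled time. Each point is an array, circles, squares and triangles being arrays 1, 2 and 3 of a group, and bars are the group mean ± SD (n = 3). Water (blue) and OPP (orange) arrays separate at 1 week on every probe except Fdft1, and array 2 is the lowest of the OPP arrays at 1 and 4 weeks on all 9 probes.

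The first member with a probe is Hmgcs1, which condenses acetoacetyl-CoA with acetyl-CoA to HMG-CoA. In liver at 1 week its log2 ratios were -0.37, -1.27 and -0.18 on water arrays 1, 2 and 3 and 0.78, 0.03 and 0.87 on the OPP arrays. The groups did not overlap, with water array 2 far below the other water arrays and OPP array 2 close to the tissue median. The difference was 1.17 (SE 0.30, 95% interval 0.54 to 1.80), which did not pass (limma adjusted p 0.0782). Among the 6 members with a promoter window, Hmgcs1 alone held the SRE-like match, whose part in these values was not tested.

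Mvk, Pmvk and Mvd carry mevalonate to isopentenyl diphosphate. Mvk, the kinase that phosphorylates mevalonate, read -0.41, -0.46 and -0.27 in water and 0.09, -0.19 and 0.13 in OPP livers at 1 week. These narrow groups did not overlap, and the difference of 0.39 (SE 0.14) did not pass (limma adjusted p 0.279). Pmvk, which adds the next phosphate, read -0.23, -0.71 and -0.19 in water and 0.61, 0.36 and 0.85 in OPP livers.

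All OPP arrays of Pmvk were above the tissue median and all water arrays below it. Its difference was 0.99 (SE 0.18, 95% interval 0.61 to 1.37, limma adjusted p 0.0133). Mvd read -0.17, -0.53 and -0.04 in water and 1.33, 0.68 and 1.13 in OPP livers. It had the smallest adjusted p of the members, with a difference of 1.29 (SE 0.20, 95% interval 0.88 to 1.71, limma adjusted p 0.00508), and OPP arrays 1 and 3 were its highest of the 18 liver arrays.

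Idi1 and Fdps turn the 5-carbon unit into farnesyl diphosphate. Idi1 read -0.45, -1.29 and -0.62 in water and 0.48, -0.14 and 0.52 in OPP livers at 1 week. Every OPP array was above every water array, and OPP array 2 was nearest to the water arrays. The difference was 1.07 (SE 0.21, 95% interval 0.63 to 1.51, limma adjusted p 0.0194). Fdps, the farnesyl diphosphate synthase, read -0.64, -1.34 and -0.12 in water and 0.48, 0.18 and 0.51 in OPP livers. Its OPP arrays were close together, whereas its water arrays ran from near the median to the lowest of all 18, and the difference of 1.09 (SE 0.26) did not pass (limma adjusted p 0.0568).

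Fdft1, the squalene synthase, stood apart from its neighbours on both sides of the pathway. It read -0.17, 0.13 and 0.08 in water and 0.13, -0.12 and 0.06 in OPP livers at 1 week, and the groups overlapped. The difference was 0.01 (SE 0.13, 95% interval -0.26 to 0.28, limma adjusted p 0.989), and its 6 liver group means spanned 0.11 on the log2 scale, against 0.57 to 1.54 for the other probes. Whether this probe lies near background cannot be read from the ratios.

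Sqle, which makes squalene epoxide, was measured by a pair of probes. Probe 1 read -1.02, -1.08 and -0.37 in water and 0.75, 0.03 and 0.49 in OPP livers at 1 week. Probe 2 read -1.11, -1.77 and -0.62 in water and 0.85, -0.21 and 0.49 in OPP livers. On both probes the groups did not overlap and OPP array 2 was the lowest OPP array. The differences were 1.25 (SE 0.27, limma adjusted p 0.0331) and 1.54 (SE 0.36, limma adjusted p 0.0487).

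Leaving out single arrays moved the number of called probes from 5 to 1 (without water array 2 or OPP array 3), to 3 (without water array 1 or OPP array 1) or to 6 (without water array 3 or OPP array 2). Mvd stayed called in each of these fits, with differences between 1.15 and 1.48. Without both arrays numbered 2, an alternative chosen after seeing the data, Mvd (1.34) and Idi1 (1.04) were called. In a fit to the 6 compared arrays alone Mvd was the called member, and with a robust variance prior Pmvk, Mvd and Idi1 were.

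No gene of the marker lists was called at 1 week in liver. All 14 hepatocyte probes had a positive difference, with a median of 0.19, and 2 of 11 leukocyte probes did, with a median of -0.16. By array, the hepatocyte median lay between -0.15 and 0.01 on water arrays and between -0.10 and 0.25 on OPP arrays. The leukocyte median lay between -0.08 and 0.31 on water and between -0.08 and -0.04 on OPP arrays. Median differences were 0.05 over 5 erythroid, -0.30 over 3 acinar and -0.13 over 3 adipocyte probes, the last list holding Adipoq at -1.23 (SE 0.63, limma adjusted p 0.50). The part of these shifts in the result was not tested. In whole tissue, fewer cells of a type and less RNA per cell cannot be told apart.

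Some genes of a feeding and fasting list also differed on these arrays. Of the 11 genes measured, 2 were called higher and 2 lower with OPP than with water at 1 week in limma. Among all probes 0.705% were called higher. The glycogen-targeting phosphatase subunits Ppp1r3b (1.45, SE 0.33) and Ppp1r3c (1.52, SE 0.35) were higher. The metallothioneins Mt1 (-3.08, SE 0.65) and Mt2 (-3.64, SE 0.49) were lower. Pck1, G6pc, Igfbp1, Cpt1a, Angptl4, Pdk4 and Fgf21 of the same list were not called. Of 13 clock genes none was called, and their 20 probes ran from -2.01 (Dbp, an output factor of the clock) to 1.45 (Arntl, a core activator), with 8 positive. All OPP arrays lay below all water arrays on 9 of these probes, against 5.63% of all probes, and above on 2. In spleen, Dbp was lower with OPP at 1 week (-1.78, SE 0.20) and at 4 weeks (-1.45, SE 0.20), and Nr1d2 at 4 weeks (-0.82, SE 0.13), in limma. The part of feeding and of the hour of sampling in the members' difference was not tested.

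At 18 hours no member passed the test in liver. Differences ran from -0.15 (Mvd) to 0.23 (Pmvk), 5 of 9 were positive, and none had an unadjusted p under 0.05. In limma 0 of 9 probes were called, against 0% of all probes. No member's groups were separate, whereas 3.61% of all probes had all OPP arrays above water and 11.1% all below. Mvd, for example, read -0.02, -0.26 and 0.43 in water and 0.02, -0.36 and 0.06 in OPP livers, with an interval for the difference from -0.56 to 0.27. Sqle probe 2 read 0.04, 0.03 and 0.65 in water and -0.03, 0.25 and 0.52 in OPP livers. Array 3 was the highest of its group on 8 of 9 probes in both drinks.

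At 4 weeks all 9 probes again stood higher with OPP, by 0.04 (Fdft1) to 1.08 (Hmgcs1), with a median of 0.52 against -0.0022 over all probes. In limma 0 were called, 5 had an unadjusted p under 0.05, and 0.0417% of all probes were called higher. Mvd came nearest: it read -0.31, -0.42 and -0.48 in water and 0.78, 0.20 and 0.78 in OPP livers, a difference of 0.99 (SE 0.20, 95% interval 0.58 to 1.40, limma adjusted p 0.0586). Hmgcs1 read -0.28, -0.93 and -0.34 in water and 0.99, -0.02 and 0.71 in OPP livers.

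On Mvd and Hmgcs1 the groups were separate, which holds for 6.32% of all probes. On the other 7 probes OPP array 2 fell among the water arrays or below them; on Sqle probe 1 it read -0.19, within the water range of -0.77 to -0.03. Mvd was called in 5 other settings (replicate block, array weights, median centring, quantile normalisation and the more variable probes only), at 0.98 to 1.23. OPP array 1 of this group had a pancreatic acinar list median of 6.73, against -0.23 to 0.25 on the other liver arrays of OPP mice, and its part in these values was not tested.

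**Figure D2:**
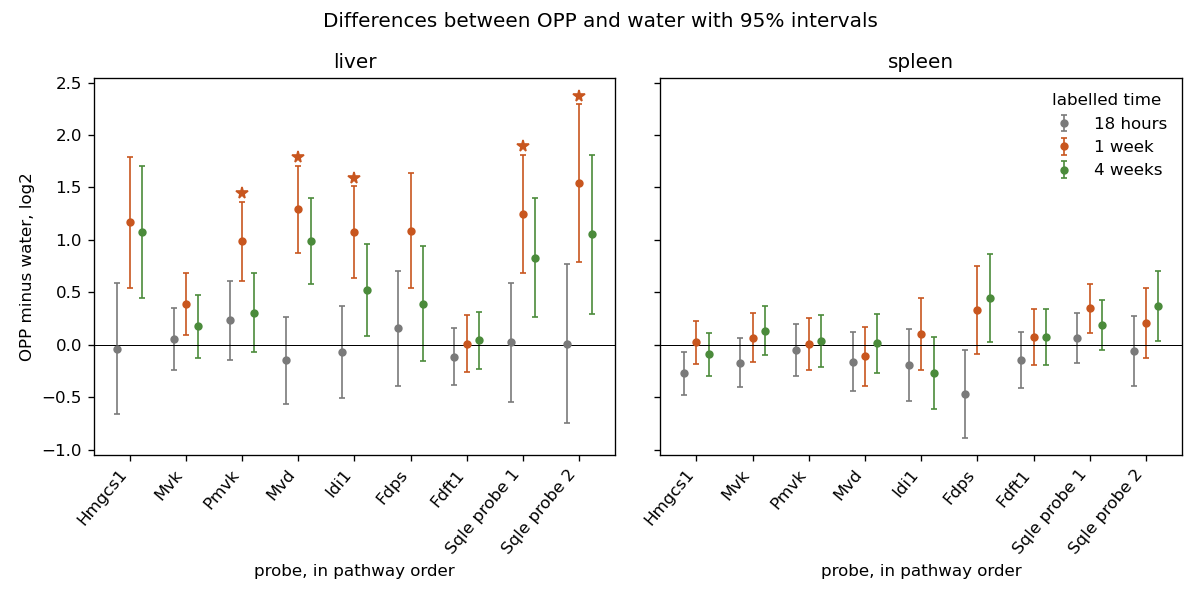
OPP minus water on the log2 scale (vertical axis) for each probe in pathway order, in liver (left) and spleen (right), at 18 hours, 1 week and 4 weeks. Points are limma estimates with 95% intervals and stars mark an adjusted p under 0.05; stars stand in liver at 1 week over Pmvk, Mvd, Idi1 and both Sqle probes.

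Within water mice Mvk, Idi1 and Sqle fell in liver between 18 hours and 1 week. All 9 differences were negative, with a median of -0.69 against 0.01 over all probes. Of the 9 probes, 4 were called lower, against 2.66% of all probes, and on 5 every 1-week array lay below every 18-hour array, against 9.04% of all probes. Idi1 fell by 0.93 (SE 0.21, limma adjusted p 0.00964), from 18-hour values of 0.01, 0.26 and 0.17. Sqle fell by 0.91 (SE 0.27) on probe 1 and by 1.40 (SE 0.36) on probe 2, and Mvk, whose OPP difference did not pass, by 0.51 (SE 0.14, limma adjusted p 0.0352).

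The count of 4 in water mice became 0 without 1-week array 2, which was the lowest of its group on 8 of 9 probes. It became 1 without 18-hour array 3 or 1-week array 1, and 2 without 18-hour array 2. With a robust prior it was 2. From 1 to 4 weeks, 7 of 9 water differences were positive (median 0.32) and limma called 0; unadjusted p-values under 0.05 also numbered 0. Of all probes 0.00417% were called there. In the step from 18 hours to 1 week, 1 of 11 hepatocyte and 2 of 8 leukocyte genes were also called lower, and their part was not tested.

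In OPP livers no member was called lower over that week. Mvd rose by 1.14 (SE 0.20, limma adjusted p 0.000489), the 1 call among 9 probes against 14.7% of all probes called higher, so the members' share was near the background. Pmvk had a difference of 0.49 (SE 0.18, limma adjusted p 0.0698), and on Pmvk and Mvd all arrays at 1 week were above those at 18 hours, as on 21.9% of all probes. The other 7 probes had differences between -0.18 and 0.39. The comparison with water at 1 week and those between times share arrays, so these values are given side by side and not as separate support. From 1 to 4 weeks OPP livers had 0 calls, 1 unadjusted p under 0.05 (Mvd, -0.46, SE 0.20) and 0.00417% of all probes called.

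The change of the OPP difference between times was tested directly. From 18 hours to 1 week it grew on all 9 probes, by 0.12 (Fdft1) to 1.53 (Sqle probe 2). Mvd alone passed, at 1.44 (SE 0.28, limma adjusted p 0.0364), where 0.384% of all probes were called higher. It lost its call without any of 8 single arrays, in a fit to the compared arrays only and with a robust prior. Between 1 and 4 weeks no change of the OPP difference passed in limma (0 called, 1 at an unadjusted p under 0.05, 0% of all probes); for Mvd the 1-week difference was larger by 0.30, with a 95% interval from -0.28 to 0.89. The moderated F test over all times called 0 members, with 6 at an unadjusted p under 0.05 and a smallest adjusted p of 0.0664, while 0.108% of all probes were called.

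Most members shared their lowest and their highest liver group, while the full order of the 6 group means differed between all 9 probes. Water mice at 1 week were the lowest of 6 groups on 7 of 9 probes, the exceptions being Mvd, lowest in water mice at 4 weeks, and Fdft1. OPP mice at 1 week were the highest on 6 probes, and at 4 weeks on Sqle probe 1. For Hmgcs1 the means ± SD (n = 3) were -0.61 ± 0.58 and -0.52 ± 0.36 in water mice at 1 and 4 weeks, and 0.17 ± 0.41 and 0.21 ± 0.18 in OPP and water mice at 18 hours. They were 0.56 ± 0.52 and 0.56 ± 0.46 in OPP mice at 4 weeks and 1 week. Neighbours in that order differed by less than the larger of their SDs, except for the step from water mice at 4 weeks to OPP mice at 18 hours.

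Members also varied together between arrays of the same group. Over the 18 liver arrays the 28 pairs of probes without Fdft1 had Pearson correlations from 0.41 to 0.95 (median 0.84), and after removal of the group means from 0.63 to 0.95 (median 0.79). The pairs that include Fdft1 ran from 0.11 to 0.30 (median 0.25), and after removal of the group means from 0.13 to 0.50 (median 0.36). These are descriptions over arrays that share their scaling. Array 2 was the lowest of its group on 9 of 9 probes in OPP livers at 1 week and at 4 weeks, on 8 in water livers at 1 week and on 6 in water livers at 4 weeks.

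Genes outside the list whose liver values were most like the members' mean were mostly later enzymes of the same route. By Pearson correlation over 18 liver arrays, given as a description, the 6 closest genes were Dhcr7 (0.97), Nsdhl (0.94), Cyp51 (0.93), Msmo1 (0.92), Lss (0.91) and Rdh11 (0.86). Dhcr7 makes cholesterol from 7-dehydrocholesterol, Cyp51 and Msmo1 remove methyl groups from lanosterol products, Nsdhl is a sterol dehydrogenase of the same stretch, and Lss cyclises squalene epoxide. Rdh11, a retinol dehydrogenase, is the 1 gene of the 6 outside the sterol list. Of the members, Hmgcs1 lay closest to the mean (0.97) and Fdft1 farthest (0.28), the mean including each of them.

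**Figure D3:**
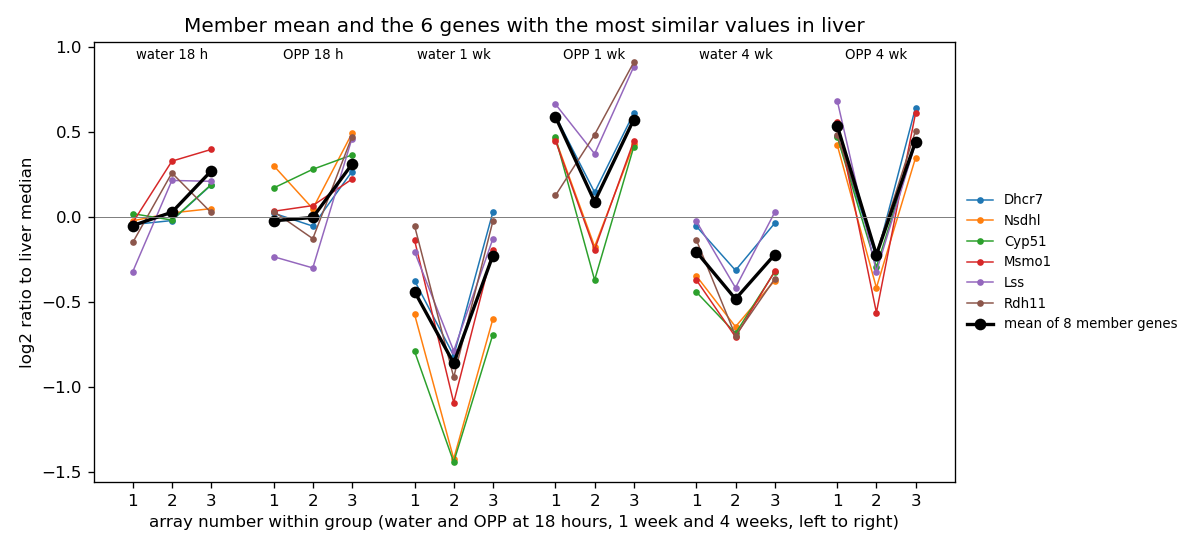
Log2 ratio to the liver median (vertical axis) of the mean over 8 member genes (black) and of the 6 genes with the most similar values, on each of the 18 liver arrays (horizontal axis, arrays 1 to 3 in each of 6 groups). All lines dip at array 2 of the water group at 1 week; Rdh11 departs from the others at array 2 of the OPP group at 1 week.

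The later sterol steps had 8 of 10 listed genes measured on 10 probes. At 1 week in liver 2 genes were called higher with OPP than with water, 6 did not pass and none was called lower. Among all probes 0.705% were called higher. All 10 probes were positive (median 0.93). On 8 of them every OPP array lay above every water array, against 7.01% of all probes. Nsdhl was higher on 3 probes by 1.10 to 1.13 and Cyp51 by 1.14 (SE 0.22, limma adjusted p 0.0200). In the list of sterol sensing and uptake, 1 of 10 measured genes was called higher, Insig1. It holds SREBP in the endoplasmic reticulum and is itself induced by SREBP. Its differences were 0.76 (SE 0.18) and 0.86 (SE 0.19) on a pair of probes and 0.19 on another. Of 9 genes of upstream steps and side branches and 8 of fatty acid synthesis, none passed; their medians were 0.08 and 0.39.

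Between 18 hours and 1 week, fatty acid synthesis genes moved the other way in water livers. Of 8 measured, 4 rose and none fell, with a median of 0.79, while later sterol steps had 2 falls (Cyp51 and Nsdhl) and a median of -0.50. In OPP livers 6 of 8 fatty acid synthesis genes rose, with a median of 1.10, and 3 of 8 later sterol genes (Hsd17b7, Ebp and Sc5d). Among all probes 4.46% were called higher in water and 14.7% in OPP livers.

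In spleen no member passed the test between drinks at any time. The limma fit called 0 of 9 probes at 18 hours (0% of all probes), at 1 week (0.00834%) and at 4 weeks (0.334%). Unadjusted p-values under 0.05 numbered 2, 1 and 2. All OPP arrays were below all water arrays on 3 member probes at 18 hours (Hmgcs1, Fdps and Fdft1), as on 10.7% of all probes. They were above on Sqle probe 1 at 1 week (3.25%) and on Fdps and both Sqle probes at 4 weeks (10.1%). Differences ran from -0.47 to 0.07 at 18 hours, from -0.11 to 0.35 at 1 week and from -0.27 to 0.45 at 4 weeks. The largest positive value, 0.45 (SE 0.20, limma adjusted p 0.513), was that of Fdps at 4 weeks, which read 0.30, 0.23 and -0.05 in water and 0.62, 0.57 and 0.62 in OPP spleens. Fdps was called there with array weights and in a fit to the compared arrays only.

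Mvd in spleen read 0.01, 0.20 and -0.25 in water and 0.00, -0.03 and -0.34 in OPP mice at 1 week, with overlapping groups and an interval for the difference from -0.39 to 0.17. A fit over both tissues, which took all arrays as independent, tested whether the 1-week difference was larger in liver. It was for Mvd, by 1.40 (SE 0.25, limma adjusted p 0.00872), and for Pmvk, by 0.98 (SE 0.22, limma adjusted p 0.0473), where 0.25% of all probes were called higher. The other 7 probes did not pass, with values from -0.07 (Fdft1) to 1.34 (Sqle probe 2). Mvd kept its call when any single array was left out and Pmvk lost it in 8 of 12 such fits and after median centring. The sample titles do not say whether liver and spleen arrays came from the same mice, and such a link was not modelled.

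**Figure D4:**
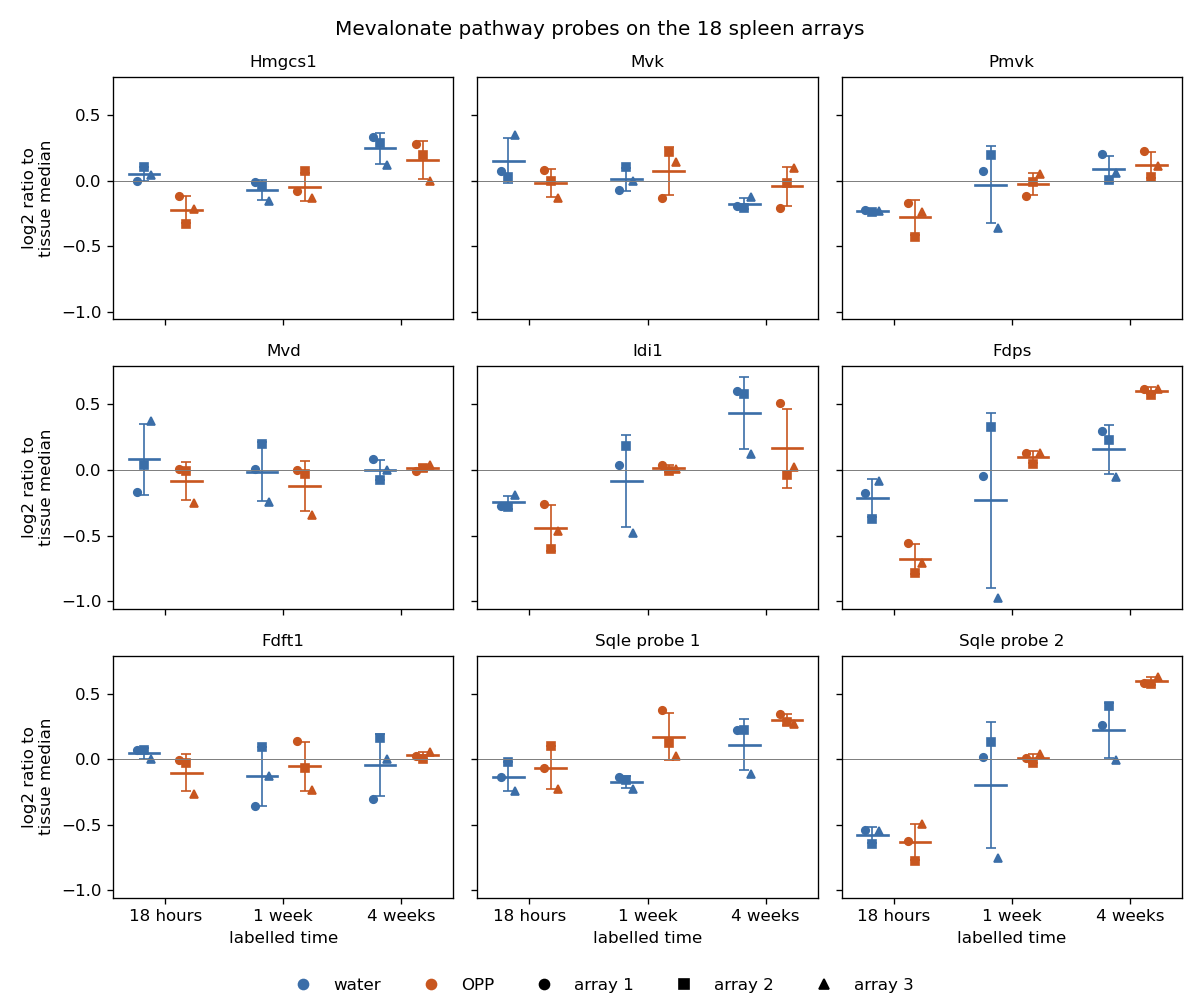
Log2 ratio to the spleen median (vertical axis) of the 9 probes on the 18 spleen arrays by labelled time, with symbols as for liver: points are arrays 1 to 3, bars the group mean ± SD (n = 3), water blue and OPP orange. Drinks overlap on most probes, while Fdps and Sqle probe 2 sit lowest at 18 hours and highest at 4 weeks in OPP mice.

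Few members passed the test between times in spleen, and from 1 to 4 weeks their share was not above the background. In OPP mice Fdps read -0.56, -0.78 and -0.71 at 18 hours, 0.13, 0.05 and 0.13 at 1 week and 0.62, 0.57 and 0.62 at 4 weeks, with no overlap between successive times on the arrays. It rose by 0.78 (SE 0.20, limma adjusted p 0.0350) over the first step. Sqle probe 2 rose by 0.64 (SE 0.16, limma adjusted p 0.0315) and then by 0.59 (SE 0.16, limma adjusted p 0.00919), whereas probe 1 had 0.24 and 0.13, which did not pass. The shares of all probes called higher were 2.32% in the first step, where 2 of 9 members were called, and 28.8% in the second, where 1 of 9 was. Separate groups, with all later arrays above, made up 12.9% and 43.8% of all probes in these steps.

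The first-step count in OPP spleens was 0 without any of 5 of the 6 arrays and 1 without 18-hour array 3. In water spleens 0 members were called from 18 hours to 1 week (1 unadjusted p under 0.05; 0.65% of all probes called). From 1 to 4 weeks Hmgcs1 rose by 0.31 (SE 0.10, limma adjusted p 0.0246) and Idi1 by 0.52 (SE 0.16, limma adjusted p 0.0262), 2 of 9 against 24.4% of all probes. The median of all probes shifted by 0.15 in that step in water and by 0.17 in OPP spleens. After median centring 0 members were called in water spleens, and without 1-week array 3, 4-week array 1 or 4-week array 2 also 0; without 1-week array 2 or 4-week array 3 the count was 4.

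Erythroid and leukocyte genes also moved between times in spleen. From 1 to 4 weeks 2 of 3 erythroid and 5 of 8 leukocyte genes rose in water mice, and 3 of 3 and 6 of 8 in OPP mice, in limma. Among all probes 24.4% were called higher in that step in water and 28.8% in OPP spleens. The leukocyte median went from between -0.17 and 0.13 to between 0.41 and 0.56 on water arrays, and from between -0.39 and -0.23 to between 0.08 and 0.26 on OPP arrays. The median of 5 erythroid probes lay between -1.23 and -0.40 on the 6 arrays of 18 hours and between 0.22 and 0.56 on those of 4 weeks. On the arrays of 1 week it lay between -0.15 and 0.08 except for water array 3, at -1.34, on which Fdps read -0.97, Sqle probe 2 -0.75 and Idi1 -0.48, their lowest values at 1 week. The part of these cells in the members' time course was not tested. On single spleen arrays further lists stood apart: the hepatocyte median was 1.77 and 1.37 on water arrays 2 and 3 of 18 hours and 1.49 on OPP array 1 of 1 week. The acinar median was -2.12 on OPP array 1 of 1 week, and on water array 2 it lay at the lowest ratio of the deposited table, 0.01, which is a floor and not a measured level. Member medians over 9 probes lay between -0.08 and 0.13 on these 4 arrays, and water array 2 of 1 week was the highest of its group on 7 of 9 probes. The part of these lists was not tested.

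Over the 18 spleen arrays members varied together less than in liver. Pearson correlations, again a description, ran from -0.43 (Mvk and Idi1) to 0.93 (Fdps and Sqle probe 2) over 36 pairs, with a median of 0.31, against 0.80 in liver. Mvk had its lowest group means in water and OPP mice at 4 weeks, where Fdps and Sqle probe 2 had their highest. The Mvd group means spanned 0.20 in spleen and 1.45 in liver, each relative to its own tissue's median.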

How the data were processed

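RNA of 36 spleen and liver samples was labelled with biotin and hybridised to Illumina arrays, per the labels. The deposited value table holds linear ratios of each probe to its median over the 18 arrays of a tissue; this was tested on the file (row medians within 0.0005 of 1). The authors' background correction, scaling and software are not given in the sources used here. A deposited table of unnormalised signals was not used, since none of its 72 column names could be tied to a sample.

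Ratios were taken to log2, without filter or offset, and fitted in limma 3.58.1 (R 4.3.3) with a mean per group, separately in each tissue (12 residual degrees of freedom); the comparison of tissues used all 36 arrays. Benjamini-Hochberg adjustment ran over all 23982 probes, with calls under 0.05. The ratios hold no levels and the unnormalised signals were left unused, so no filter on dim probes was applied. Gene names came from the platform annotation, updated through gene identifiers. Every member probe is reported; of each context list the called genes (at most 4) in liver at 1 week, and other names in those lists were added after their values were seen. The genes most alike were the 6 with the highest correlation. Members and lists were chosen with earlier results of these data known. Alternatives are given in the closing section. Groups and replicate numbers came from the sample titles.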

Additional observations from a re-analysis of the deposited data

Results flagged for a closer look

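The OPP difference of Mvd differed between times in liver, being larger at 1 week than at 18 hours by 1.44 on the log2 scale (SE 0.28, limma adjusted p 0.0364). All 3 OPP arrays were above all 3 water arrays at 1 week and the groups overlapped at 18 hours. It also differed between tissues at 1 week, being larger in liver than in spleen by 1.40 (SE 0.25, limma adjusted p 0.00872). For Pmvk the 1-week difference was larger in liver than in spleen by 0.98 (SE 0.22, limma adjusted p 0.0473). No outlier test was run in these groups of 3, but each array was left out in turn. Mvd kept its call between tissues in every such fit. Its call between times and the call of Pmvk between tissues were each lost in many of them.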

How the results depend on the processing

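Counts are of 9 member probes called. In liver at 1 week the 5 calls of OPP against water became 1 in a fit to the compared arrays and 3 with a robust prior, and 1 to 6 when arrays were left out. At 4 weeks the 0 became 1 under array weights, median centring, quantile normalisation and the more variable probes. The cause of these moves was not tested. Water livers from 18 hours to 1 week had 4, with 2 under a robust prior and 0 to 5 with arrays left out. OPP livers had 1, with 2 in the compared arrays, under the filter for variable probes, and 1 to 2 with arrays left out. The change in liver from 18 hours to 1 week of the OPP difference had 1, with 0 in the compared arrays and with a robust prior, and 0 to 2 with arrays left out. The F test in liver had 0, with 0 to 1. The difference between tissues had 2, with 1 after centring, 4 after quantile normalisation and 1 to 3 with arrays left out. In spleen OPP against water at 4 weeks had 0, with 1 in the compared arrays and under array weights. Water spleens to 1 week had 0, with 1 after quantile normalisation and 0 to 1 with arrays left out. To 4 weeks they had 2, with 1 under array weights, 0 in the compared arrays, after centring and after quantile normalisation, and 0 to 4 with arrays left out. OPP spleens to 1 week had 2, with 1 under a robust prior and 0 to 1 with arrays left out. To 4 weeks they had 1, with 2 in the compared arrays, under array weights and for the variable probes, and 0 after quantile normalisation. No called difference changed sign in any setting.

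With the replicate number as a block the count was 1 in liver at 4 weeks (Mvd), 2 in OPP livers to 1 week and 1 in the F test of liver, and stayed within 1.5 times of the main count elsewhere. Over all probes the numbers showed no sign of pairing. Deviations of same-numbered water and OPP arrays correlated from -0.29 to 0.21, and 1 of 18 pairs was above 0.1. Member probes did share an order by number in some liver groups, array 2 being lowest on 9 of 9 probes in OPP livers at 1 and 4 weeks. Whether same-numbered arrays share a source is not settled by these values. Over all probes, calls in liver at 1 week numbered 222, 64 in the compared arrays, 397 after quantile normalisation and 30 without OPP array 3.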
